A study of Mus musculus with 22 samples.

Results

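Skeletal muscle genes were followed through stromal cells sorted from mouse tumors. The 10 genes, of 41388 in the deposited tables, were Ttn, Acta1, Tnnt3, Myh1, Myh4, Mylpf, Ckm, Mb, Pax7 and Myod1. They were chosen by symbol, and all 10 matched an Ensembl identifier. The choice followed from the position of Ttn among the genes furthest apart between the genotypes in double positive cells, so every value from that comparison is given below as a description without a test. Of the 10 genes, 7 exceeded 1 CPM (a count scaled by the size of its library) in at least 2 of 22 libraries and entered the tests, as 15018 genes did in all. Myh4, Pax7 and Myod1 did not, and their counts are given as they stand.

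The stroma came from C57BL/6 mice at postnatal day 56. All mice carried Osx-cre, a Cre recombinase under a tetracycline-repressible Osx (Sp7) promoter, together with the Ai9 reporter, which leaves TdTomato (TdT) in cells with present or past Osx-cre activity and in their progeny. The label Cdh2-cKO marks mice in which Osx-cre was to delete Cdh2 (N-cadherin) in these cells as well, and wild type (WT) marks Osx-cre;Ai9 mice without that deletion. From 4 inoculated WT and 6 inoculated Cdh2-cKO mice, preparations of sufficient RNA integrity (average RIN 8.95) were sequenced, 11 libraries of each genotype. The labels name an orthotopic MMTV-BO1 tumor, whereas the study's methods describe a subcutaneous GFP-labeled PyMT-BO1 line whose GFP+ cells were gated out. Cells were sorted by TdT and CD45, the surface marker of leukocytes, into TdTOSX single positive (TdT+;CD45-), double positive (TdT+;CD45+), CD45 single positive (TdT-;CD45+) and double negative (TdT-;CD45-) populations. In each genotype, 2 libraries came from TdTOSX single positive cells and 3 from each of the other populations, and the labels do not tie libraries of different populations to mice.

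Skeletal muscle contracts through sarcomeres, repeating units in which thick filaments of myosin slide along thin filaments of actin. Titin spans the sarcomere as a spring and scaffold, and troponin on the thin filament sets the calcium response. Slow oxidative and fast glycolytic fibers use different isoforms of most of these proteins, and the genes are switched on in the muscle lineage by MyoD and related factors. Neither osteolineage cells nor leukocytes are known for this program.

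The libraries held from 16594228 to 26784003 counted reads, so that 3 counts, taken as the smallest signal, corresponded to between 0.103 and 0.201 normalized CPM. This floor covers counting error only. Normalized CPM, the unit of all levels below, are CPM on library sizes multiplied by TMM factors. Ptprc, which encodes CD45, lay between 472 and 1821 in the 12 CD45+ libraries and between 2.45 and 337 in the 10 CD45- libraries. The highest CD45- values were those of double negative replicate 3 labelled WT (337) and TdTOSX single positive replicate 1 labelled cKO (164). CD45 single positive replicate 2 labelled WT stood apart by its T cell markers, 5 genes that summed to 1491 there and to at most 307 in any other library. Cdh2, the targeted gene, was not lower under the cKO label. In TdTOSX single positive cells it was 5.19 and 9.13 in the libraries labelled WT and 13.1 and 17.2 in those labelled cKO, and in double negative cells the libraries labelled cKO (12.5 to 18.4) also lay above those labelled WT (4.52 to 7.47). Reads were counted over the whole gene, and which exons the deletion removes is not given in the sources used here. The 2 groups are therefore called by their labels throughout, and every direction between them rests on those labels.

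Ttn (titin, ENSMUSG00000051747) lies on the minus strand of chromosome 2, at chr2:76703980-76982547 (GRCm38), and its exons add up to 116825 bases. The highest value by far was in double positive replicate 1 labelled WT, at 72.0 CPM from 1211 counts, 67.2% of all its counts in the 22 libraries. Replicate 3 of the same group held 11.1 and replicate 2 held 1.23. The libraries of double positive cells labelled cKO were at 0.497, 0.776 and 1.14. All 3 double positive libraries labelled WT thus lay above all 3 labelled cKO, although replicate 2 did so by a small margin. The mean was 28.1 ± 38.3 (SD, n = 3) against 0.805 ± 0.324 (n = 3), 34.9 times as high, and 7.68 times as high when replicate 1 was left out. Mylpf was the only other tested member without overlap there (WT higher), a pattern that 6.05% of all tested genes had. This is the comparison by which the genes were chosen.

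Outside double positive cells Ttn lay between 0.273 and 2.81. The double positive libraries except replicates 1 and 3 labelled WT lay within the same range. Ttn was 0.459 and 1.12 in TdTOSX single positive cells under the WT label and 1.03 and 0.273 under the cKO label. In CD45 single positive cells the values were 0.842, 2.81 and 0.431 against 0.934, 0.736 and 0.320, and in double negative cells 1.01, 1.59 and 0.551 against 1.21, 1.84 and 0.584. The 2.81 belongs to the library with the high T cell markers. By mean the order was double positive labelled WT, then CD45 single positive labelled WT (1.36), double negative labelled cKO (1.21) and WT (1.05), double positive labelled cKO (0.805), TdTOSX single positive labelled WT (0.791), CD45 single positive labelled cKO (0.663) and TdTOSX single positive labelled cKO (0.651). The libraries of the last 7 groups in this order overlapped one another.

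Acta1, the skeletal muscle actin of the thin filament (ENSMUSG00000031972, chr8:123891767-123894736, minus strand), was highest elsewhere. In double negative cells labelled cKO it was 46.7, 135.8 and 30.9 CPM, and in those labelled WT 9.19, 33.98 and 8.54. In TdTOSX single positive cells it was 18.8 and 101.5 under the cKO label and 16.7 and 3.02 under the WT label. CD45 single positive cells had the lowest values, 0.824, 0.803 and 1.03 labelled cKO and 1.32, 2.41 and 1.29 labelled WT, and double positive cells were at 2.32, 4.37 and 2.16 labelled cKO and 22.1, 1.58 and 5.96 labelled WT. The 5 libraries with most Acta1 were CD45-, 4 of them labelled cKO, and the highest CD45+ library was the one with most Ttn (22.1).

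**Figure D1:**
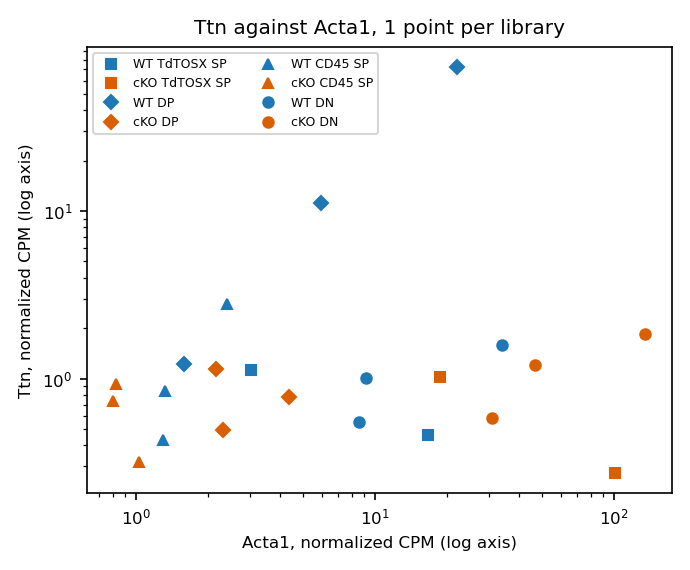
Normalized CPM of Ttn (vertical log axis) against Acta1 (horizontal log axis), 1 point per library, with the shape giving the sorted population (squares TdTOSX single positive, SP; diamonds double positive, DP; triangles CD45 SP; circles double negative, DN) and the color the genotype label (blue WT, orange cKO). Double positive replicate 1 labelled WT stands alone at 72.0 for Ttn, while the points furthest right, at 135.8 and 101.5 for Acta1, have Ttn at 1.84 and 0.273.

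The promoters of these genes were read from RefSeq for GRCm38.p6, as the 250 bases before the transcription start, to show what the genes that peaked in different libraries have in common. The capitals mark 3 motifs of muscle regulation that were searched on both strands. They were the E-box CANNTG bound by MyoD and its relatives, the MEF2-like pattern CTANNNNTAG, and the CArG box of serum response factor. N stands for any base, so the MEF2-like pattern may be broader than the site of MEF2 factors. Ttn, at chr2:76982548-76982797 on the minus strand, holds 1 E-box and 1 MEF2-like motif. Acta1, at chr8:123894776-123895025 on the minus strand, holds 2 E-boxes and 1 CArG box. Ckm, at chr7:19410844-19411093 on the plus strand, holds 1 E-box, and Myh4, at chr11:67237562-67237811 on the plus strand, holds 2 E-boxes and 1 CArG box.
Ttn: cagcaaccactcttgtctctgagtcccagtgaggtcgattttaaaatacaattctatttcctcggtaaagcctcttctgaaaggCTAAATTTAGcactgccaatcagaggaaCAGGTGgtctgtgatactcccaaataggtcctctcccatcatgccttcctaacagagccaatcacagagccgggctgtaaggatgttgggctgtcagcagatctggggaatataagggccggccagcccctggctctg
Acta1: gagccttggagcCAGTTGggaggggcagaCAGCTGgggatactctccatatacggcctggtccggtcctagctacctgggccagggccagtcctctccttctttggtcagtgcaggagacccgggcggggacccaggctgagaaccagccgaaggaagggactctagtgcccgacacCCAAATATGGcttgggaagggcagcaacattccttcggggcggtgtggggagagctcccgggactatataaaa
Ckm: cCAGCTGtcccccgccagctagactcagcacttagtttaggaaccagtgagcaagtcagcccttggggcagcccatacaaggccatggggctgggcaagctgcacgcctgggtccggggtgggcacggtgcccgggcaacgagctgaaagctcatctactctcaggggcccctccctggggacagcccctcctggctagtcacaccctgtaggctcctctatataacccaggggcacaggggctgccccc
Myh4: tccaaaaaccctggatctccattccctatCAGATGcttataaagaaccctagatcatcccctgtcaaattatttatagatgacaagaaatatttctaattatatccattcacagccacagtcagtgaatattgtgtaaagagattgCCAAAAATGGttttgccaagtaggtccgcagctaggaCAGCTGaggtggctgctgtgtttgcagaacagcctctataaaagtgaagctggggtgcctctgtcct
The E-box was present in 66.2% of 32851 promoters of the same length, the MEF2-like motif in 3.20% and the CArG box in 1.47%. A match is a description of the letters and not of binding. Of the other members with an entry, Mylpf and Mb hold E-boxes and Myh1 and Pax7 none of the 3 motifs.

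Tnnt3, the fast troponin T that anchors troponin to tropomyosin (ENSMUSG00000061723, chr7:142498836-142516009), had at least 9 counts in each library. It was 5.31, 19.2 and 3.38 CPM in double negative cells labelled cKO and 0.965, 3.17 and 0.991 in those labelled WT, without overlap. TdTOSX single positive cells had 1.61 and 21.3 under the cKO label, on either side of the 2.86 and 3.06 under the WT label. CD45 single positive cells lay between 0.577 and 1.72 and double positive cells between 0.679 and 7.02 over both labels. The highest double positive value, 7.02, was that of replicate 3 labelled WT.

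Mylpf, the regulatory light chain of fast myosin (ENSMUSG00000030672, chr7:127211608-127214298), was the most even of the members. It exceeded 1 CPM in all 22 libraries, with a median of 3.82, a lowest value of 1.01 and a highest of 11.1. The highest values came from double positive replicate 3 labelled WT (11.1), CD45 single positive replicate 2 labelled WT (10.4), TdTOSX single positive replicate 2 labelled cKO (9.75) and double negative replicate 2 labelled cKO (9.11). These 4 libraries belong to 4 different populations, and no population stood apart from the others for Mylpf.

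The adult fast myosin heavy chains Myh1 (ENSMUSG00000056328, chr11:67200052-67224575) and Myh4 (ENSMUSG00000057003, chr11:67238029-67260446) are the motors of type IIX and IIB fibers. Myh1 had 103 counts in all, of which 40 were in TdTOSX single positive replicate 1 labelled cKO and 13, 22 and 7 in the double negative libraries labelled cKO. Double negative cells labelled WT had 1, 8 and 0 counts, TdTOSX single positive cells labelled WT 0 and 6, and no library of CD45+ cells more than 2. Myh4 had 156 counts, 117 of them (75.0%) in double positive replicate 3 labelled WT, at 6.18 CPM. Further Myh4 counts were 13 in double negative replicate 2 and 12 in TdTOSX single positive replicate 2, both labelled cKO, and at most 5 in any other library. The 2 myosins thus peaked in different libraries. Their reads are uncertain between paralogs, since 30.5% of the 50-base windows of Myh1 and 18.9% of those of Myh4 occur in another gene, mostly Myh2, Myh4, Myh8 or Myh1, and only uniquely aligned reads were counted.

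Ckm, the muscle creatine kinase that buffers ATP (ENSMUSG00000030399, chr7:19411094-19421583), was highest in the same 2 libraries as Acta1. It was 18.5 CPM (382 counts) in double negative replicate 2 labelled cKO and 12.7 (278 counts) in TdTOSX single positive replicate 2 labelled cKO. The other double negative libraries labelled cKO had 1.26 and 0.500, those labelled WT 0, 0.921 and 0.110, and TdTOSX single positive replicate 1 labelled cKO 1.13. Both TdTOSX single positive libraries labelled WT had 0 counts, which allows at most 0.153 and 0.116. Against that floor, 3 counts in each library, the mean under the cKO label was at least 51.2-fold higher, and replicate 1 labelled cKO alone at least 8.40-fold. Double positive cells labelled WT had 4.40, 0.176 and 2.69 and those labelled cKO 0.0552, 0.825 and 0.0601. CD45 single positive cells had at most 0.401.

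Mb, myoglobin, the oxygen store of oxidative fibers (ENSMUSG00000018893, chr15:77015489-77050670), had 239 counts, of which 178 (74.5%) were in double positive replicate 1 labelled WT, at 10.6 CPM. The next library, double negative replicate 2 labelled cKO, held 19 counts (0.921). Double negative libraries labelled cKO had 8, 19 and 6 counts, those labelled WT 1, 8 and 0, and CD45 single positive cells 2 counts in 6 libraries. Mb therefore peaked in the same library as Ttn. Of its 50-base windows, 24.9% also occur in another gene.

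The last 2 members had few counts. Pax7, the transcription factor of satellite cells (ENSMUSG00000028736, chr4:139737062-139833528), had 9 counts over 22 libraries and at most 3 in any of them. Myod1, the myogenic master regulator (ENSMUSG00000009471, chr7:46376474-46379092), had 5 counts, 4 of them in double negative replicate 2 labelled WT. No fold is given for either.

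**Figure D2:**
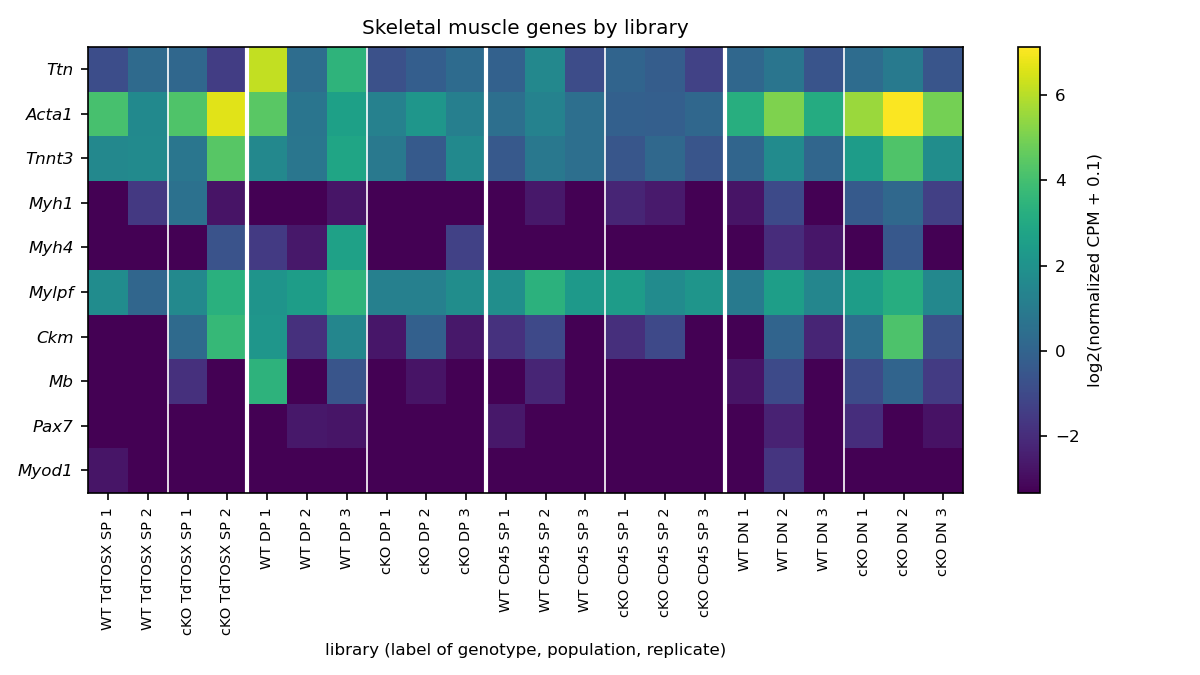
Level of each of the 10 genes (rows) in each of the 22 libraries (columns, grouped by sorted population and genotype label; SP single positive, DP double positive, DN double negative), as log2(normalized CPM + 0.1) on the color scale. Ttn and Mb are brightest in double positive replicate 1 labelled WT, Acta1, Ckm and Tnnt3 in replicate 2 of double negative and of TdTOSX SP cells labelled cKO, Mylpf is even, and Pax7 and Myod1 are near 0 throughout.

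Per kilobase of exon, the scale on which genes can be compared, the order was different from that of total reads. Over 22 libraries the median level was 4.32 CPM per kilobase for Mylpf, 3.60 for Acta1, 1.25 for Tnnt3, 0.206 for Ckm and 0.00833 for Ttn. Even in double positive replicate 1 labelled WT, Ttn reached 0.616 per kilobase, below Acta1 (15.4), Mb (8.45), Mylpf (4.70), Ckm (3.11) and Tnnt3 (2.05). These values take the reads as even along the transcript, which was not tested.

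The wider muscle program was read from a further 81 genes of 6 roles. In double positive replicate 1 labelled WT, 19 of the 81 had their highest value among the 22 libraries, as Ttn and Mb did, whereas 2.63% of all tested genes peaked there. They included genes of slow fibers. Myh7, the slow myosin heavy chain, had 182 counts (10.8 CPM) there and at most 0.273 CPM elsewhere. Its light chains Myl2 and Myl3 had 15.1 and 6.89 against at most 2.28 and 2.98 elsewhere. The slow troponins Tnnc1 and Tnnt1 had 16.6 and 26.3 against at most 3.31 and 9.34. Triadin (Trdn), which holds calsequestrin at the calcium release channel, had 8.02 against at most 1.41. Trdn was not counted among the slow fiber genes. Of the 6 slow fiber genes examined, 5 peaked in this library, the exception being Tnni1, which was highest in double negative replicate 2 labelled cKO (21.1). Not every gene of the list was sorted by fiber type. Among those left out, Mybpc1 also peaked in double positive replicate 1 labelled WT (2.67). Myoz2 (1.78) and Csrp3 (2.23) peaked in TdTOSX single positive replicate 2 labelled cKO, against 1.19 and 0.297 in double positive replicate 1 labelled WT. Of the 7 heart markers, 5 had a count in double positive replicate 1 labelled WT, and Nppa and Myl7 had 0. Ryr2 had 1 count and Myh6 3, and Tnnt2 made up 16.4 of the summed 17.7 CPM. Most of the rest was Tnni3 and Pln. Whether the slow genes stood for heart or skeletal muscle was not tested.

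The 10 fast fiber genes examined peaked in other libraries. In double positive replicate 3 labelled WT, Myh4, Mylpf and parvalbumin (Pvalb, a calcium buffer of fast fibers, 61 counts, 3.22 CPM) were highest. In double negative replicate 2 labelled cKO the fast light chain Myl1 was 10.3, the fast calcium pump Atp2a1 4.80 and the fast myosin binding protein Mybpc2 2.13. In TdTOSX single positive replicate 2 labelled cKO, Tnnt3 was 21.3 and Actn3, the fast fiber actinin, 3.05. Of the 10 fast fiber genes, 3 peaked in double positive replicate 3 labelled WT, 3 in double negative replicate 2 and 2 in TdTOSX single positive replicate 2 labelled cKO, and 0 in double positive replicate 1 labelled WT. Tnni2, the fast troponin I, behaved unlike the others and was between 6.70 and 23.1 in all 12 CD45+ libraries. In CD45- libraries it was between 0.102 and 9.86, so the ranges overlapped. These groupings by fiber type were made after the values were seen and did not take in every muscle gene. Casq1 and Tnnc2 were left out of both groups. Casq1 was highest in TdTOSX single positive replicate 2 labelled WT (1.51). Tnnc2 was highest in double negative replicate 2 labelled cKO, with 9 counts.

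**Figure D3:**
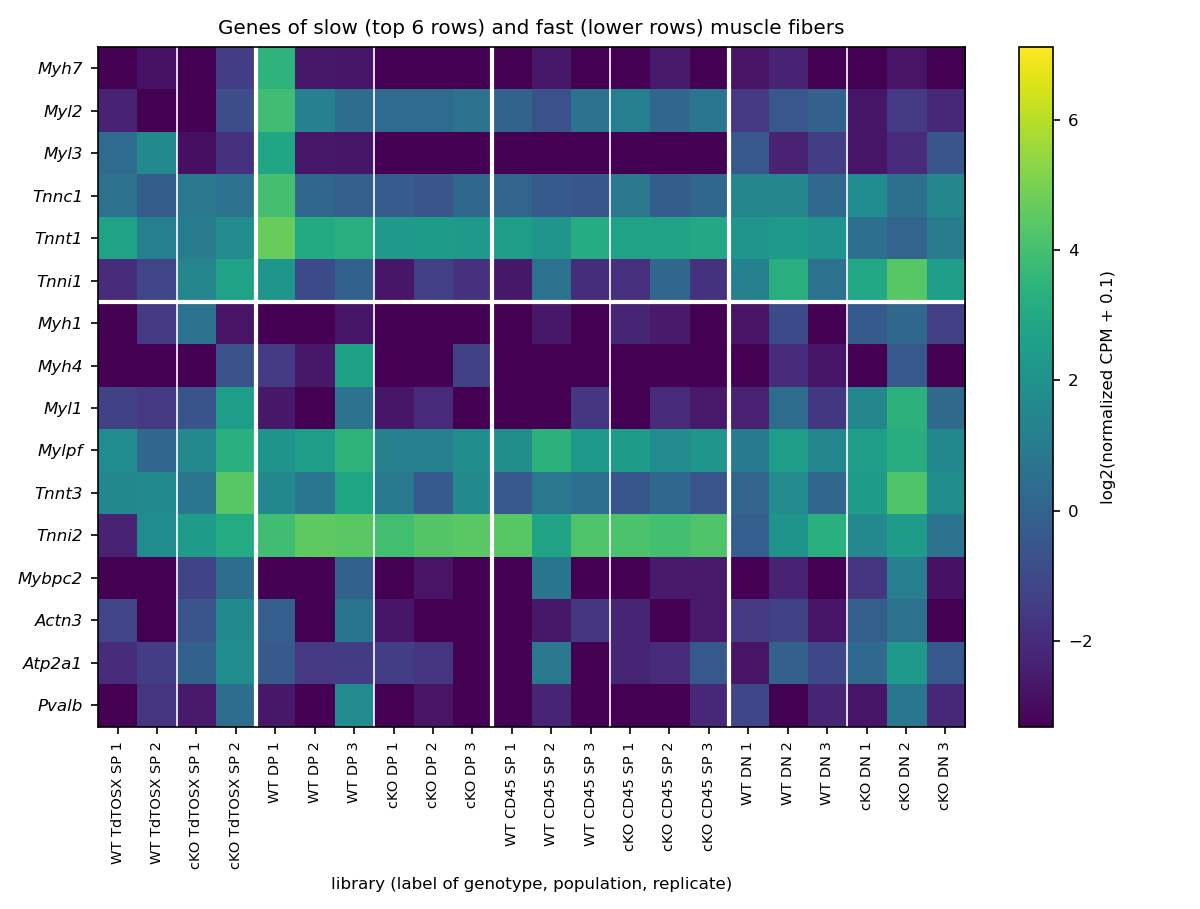
Genes of slow (upper 6 rows) and fast (lower 10 rows) muscle fibers in the 22 libraries (columns, as labelled), as log2(normalized CPM + 0.1). Double positive (DP) replicate 1 labelled WT is brightest for 5 of the 6 slow genes, and 8 of the 10 fast genes are brightest in DP replicate 3 labelled WT or in replicate 2 of TdTOSX SP or double negative (DN) cells labelled cKO.

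The first comparison asked whether the muscle genes differed between leukocytes and other stroma that lacked TdT, CD45 single positive against double negative cells. Acta1 and Tnnt3 were lower in CD45 single positive cells, and so was Myh1. Myh1 entered the test through 2 CD45- libraries labelled cKO alone, double negative replicate 2 and TdTOSX single positive replicate 1. The former belongs to a compared group, so this entry favored a lower result and the Myh1 call is not read as support. By edgeR's quasi-likelihood test over all 22 libraries, 3 of the 7 tested members were called, all 3 lower. A call needed an adjusted p (Benjamini-Hochberg) no higher than 0.05 and a log2 difference of 2 or more in size, which 24.3% of all tested genes reached, 15.4% lower and 8.92% higher. Acta1 fell by 4.84 on the log2 scale (SE 0.715, edgeR adjusted p = 3.46e-05), and all 6 CD45 single positive libraries (0.803 to 2.41 CPM) lay below all 6 double negative libraries (8.54 to 135.8), as for 15.3% of tested genes (7.40% were apart in the other direction). Tnnt3 fell by 2.05 (SE 0.628, edgeR adjusted p = 0.0108) and Myh1 by 3.00 (SE 1.15, edgeR adjusted p = 0.0385), with overlap of the libraries in both.

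Ckm was lower by a similar amount without passing (log2 fold change -2.97, SE 1.24, edgeR adjusted p = 0.0539). Mb did not pass either (edgeR adjusted p = 0.0570), and no fold is given because of its 2 counts in CD45 single positive cells. Mb entered the test through double positive replicate 1 labelled WT and double negative replicate 2 labelled cKO alone. Its p-value is therefore not read as support. Ttn (-0.24, SE 0.714, edgeR adjusted p = 0.8) and Mylpf (0.22, SE 0.425, edgeR adjusted p = 0.693) showed no difference larger than the spread. In bulk libraries, fewer cells of a type and less RNA per cell cannot be told apart.

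**Figure D4:**
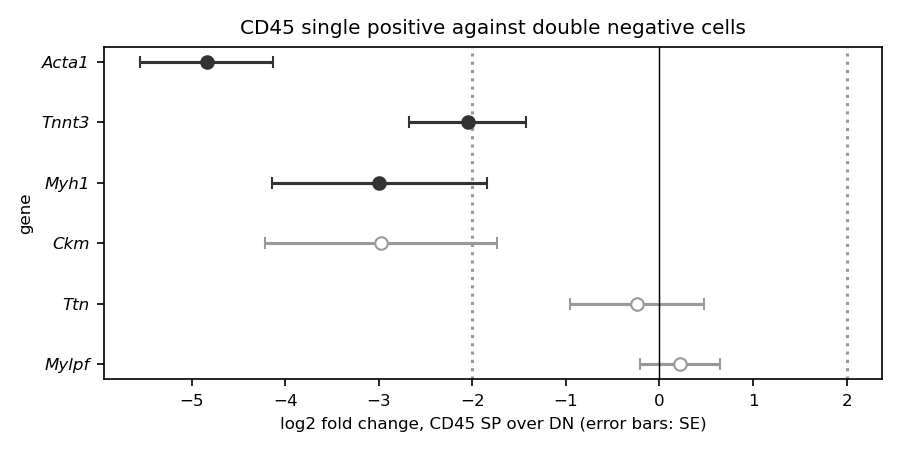
Log2 fold change of 6 members in CD45 single positive over double negative cells (points) with its SE (bars), filled where the gene was called, with dotted lines at the fold threshold of 2. Acta1 at -4.84, Myh1 at -3.00 and Tnnt3 at -2.05 are filled, and the SE bars of Ttn and Mylpf cross 0. Myh1 entered the test through 2 CD45- libraries alone.

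Acta1 was called whichever single library was left out, whereas the other calls were lost without some of them. The fold of Tnnt3 came short of the threshold without CD45 single positive replicate 1 (-1.90) labelled WT, without CD45 single positive replicates 1 (-1.98) or 3 (-1.97) labelled cKO, and without double negative replicate 2 labelled WT (-1.65) or cKO (-1.50). Myh1 lost its call without CD45 single positive replicate 1 (adjusted p = 0.0755) or 3 (0.0786) labelled WT, 2 (0.0617) or 3 (0.0742) labelled cKO, double negative replicate 2 labelled WT (0.351) or 1 labelled cKO (0.0550), all by edgeR, and was not tested without double negative replicate 2 or TdTOSX single positive replicate 1 labelled cKO. The number of members called ranged from 1 to 5 over these fits. Ckm passed without double positive replicate 2 (edgeR adjusted p = 0.0481), double negative replicate 1 (0.0373) or 3 (0.0418) labelled WT, or without double positive replicate 2 (0.0496) or double negative replicate 1 (0.0454) or 3 (0.0367) labelled cKO. With the 3 libraries of high leukocyte or T cell markers named above left out together, 4 members were called. In libraries labelled WT only Acta1 was called, with Tnnt3 at -0.48 and Ckm at -0.81, and in those labelled cKO Tnnt3 was at -3.63 and Ckm at -5.13. Myh1 had an edgeR adjusted p of 0.281 and 0.0777 in these fits, and 0.0512 without the double positive libraries. Ckm was at -1.68 without double negative replicate 2 labelled WT and -1.50 without that labelled cKO.

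Among the 81 further genes 55 were tested, and 24 were called lower and 6 higher in CD45 single positive than in double negative cells, with a median log2 fold change of -2.78, beside 0.07 over all tested genes, of which 15.4% were called lower and 8.92% higher. Among those with the lowest adjusted p were Tpm1 (-3.90, SE 0.348, edgeR adjusted p = 2.12e-07) and Tpm2 (-5.76), tropomyosins that smooth muscle and fibroblasts also use, Chrna1 (-4.47), the acetylcholine receptor subunit, Des (-5.41), desmin, and Megf10 (-5.14), a satellite cell receptor. All 8 tested genes of myogenic control were called lower, Dmd (dystrophin, -3.91) among them. Pax3 and Cav3 of these exceeded 1 CPM in double negative libraries alone, and so did Sln of excitation-contraction coupling. Musk did so in CD45- libraries alone. Entry to the test favored a lower result for such genes, so the counts and the median that include them are not read as support. Of 7 thick filament genes 3 were lower and 1 higher (Myl2, 2.11), of 11 thin filament genes 4 were lower and 2 higher, of 10 Z disc genes 3 lower and 0 higher, of 12 genes of excitation-contraction coupling 4 lower and 2 higher (among them Ryr1, 2.80), and of 7 genes of energy supply 2 lower (among them Eno3, -2.97) and 1 higher. Among the 2 most abundant genes of each role, Pfkm (-1.06), Myoz1 (1.59) and Tpm3 (0.41) had an adjusted p under 0.05 but came short of the fold, and Myom1 (0.78) and Srl (-0.54) passed neither.

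Markers of other cell types moved with this comparison. The 8 leukocyte markers summed to between 15250 and 19870 CPM in CD45 single positive and between 231 and 9514 in double negative cells. The 7 smooth muscle and pericyte markers summed to between 20.2 and 102 against between 321 and 2342, and the fibroblast markers, of which Pdpn was at 0 in every library, to between 73.7 and 220 against between 4256 and 32180. Cardiac markers summed to between 8.48 and 86.6 against between 145 and 525, and tumor epithelial markers to between 151 and 470 against between 505 and 1994. Of the cardiac sums of 246, 423 and 145 in double negative cells labelled WT, Tnnt2 alone made up 244, 422 and 143. The part of these marker lists in the result was not tested. Within CD45 single positive cells the library with the high T cell markers held the highest Neb (nebulin, the thin filament ruler, 41.9 CPM), Pygm (muscle glycogen phosphorylase, 10.8) and Actn2 (7.62) of all 22, where 20.4% of all tested genes also peaked, and its values for Acta1 (2.41) and Ttn (2.81) were the highest of its group.

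The second comparison set TdTOSX single positive against double negative cells, to ask whether CD45- cells with Osx-cre activity differed in muscle genes from those without. None of the 7 tested members was called, and 0.26% of all tested genes were. The log2 fold change was -0.53 for Acta1 (SE 0.670, edgeR adjusted p = 0.703), 0.55 for Tnnt3 (SE 0.646, edgeR adjusted p = 0.677), -0.63 for Ttn (SE 0.802, edgeR adjusted p = 0.705) and -0.28 for Mylpf (SE 0.479, edgeR adjusted p = 0.788). At an unadjusted p under 0.05 none of the 7 passed by edgeR either, and neither DESeq2 nor limma's voom called any. The median was -0.53 over the members and 0.07 over all tested genes. None of the 55 further genes was called.

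The genotype labels were compared within each population that the choice of genes had not used. In double negative cells none of the 7 tested members was called at an adjusted p of at most 0.05, and 0% of all tested genes were (1441 had an unadjusted p under 0.05, and DESeq2 called 522). Under the cKO label Tnnt3 was 5.44 times as high (log2 fold change 2.44, SE 0.871, edgeR adjusted p = 0.258), Acta1 4.13 times (2.04, SE 0.866, edgeR adjusted p = 0.405) and Ckm 19.7 times (4.28, SE 1.68, edgeR adjusted p = 0.339). These 3 had unadjusted p-values under 0.05. Without double negative replicate 2 labelled cKO the log2 fold changes were 1.34 for Tnnt3, 1.17 for Acta1 and 1.34 for Ckm, and without replicate 2 labelled WT they were 3.24, 3.00 and 6.87. That of Ckm was 3.69 without replicate 1 labelled WT. Tnnt3 was the only member of the 7 without overlap, 3 libraries above 3, as were 3.87% of all tested genes, while 5.35% were apart with cKO lower. Ttn was 1.16 times as high (0.20, SE 0.993, edgeR adjusted p = 0.998). The median over the 55 further genes, none of which was called, was 0.43, beside -0.06 over all tested genes.

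In TdTOSX single positive cells, with 2 libraries under each label, none of the 7 was called by edgeR, where 0.00666% of all tested genes (1 gene) were. Acta1 was 6.10 times as high under the cKO label (log2 fold change 2.61, SE 1.09, edgeR adjusted p = 0.435) and Tnnt3 3.88 times (1.95, SE 1.04, edgeR adjusted p = 0.532). Without replicate 2 labelled cKO the log2 fold change of Acta1 was 0.93 and that of Tnnt3 turned to -0.88. That of Acta1 was 3.37 without replicate 1 labelled cKO, 4.31 without replicate 1 and 1.85 without replicate 2 labelled WT. Acta1 and Ckm did not overlap, cKO higher, as for 21.4% of all tested genes, and 20.7% were apart with cKO lower. Ckm, at 0 under the WT label, had an edgeR adjusted p of 0.327, and DESeq2 called it (adjusted p = 0.0120). Ttn had a log2 fold change of -0.27 (SE 1.24, edgeR adjusted p = 0.958) and turned to 0.52 without replicate 2 labelled WT and to 0.36 without replicate 2 labelled cKO.

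In CD45 single positive cells none of the 7 was called and 0% of all tested genes were (1474 had an unadjusted p under 0.05, and DESeq2 called 26). Acta1 was lower under the cKO label in all 3 libraries (0.803 to 1.03 against 1.29 to 2.41), as for 5.90% of all tested genes (4.16% were apart with cKO higher), with a log2 fold change of -0.92 (SE 0.973, edgeR adjusted p = 0.776). Ttn had -1.02 (SE 1.03, edgeR adjusted p = 0.766), which turned to 0.08 without CD45 single positive replicate 2 labelled WT.

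**Figure D5:**
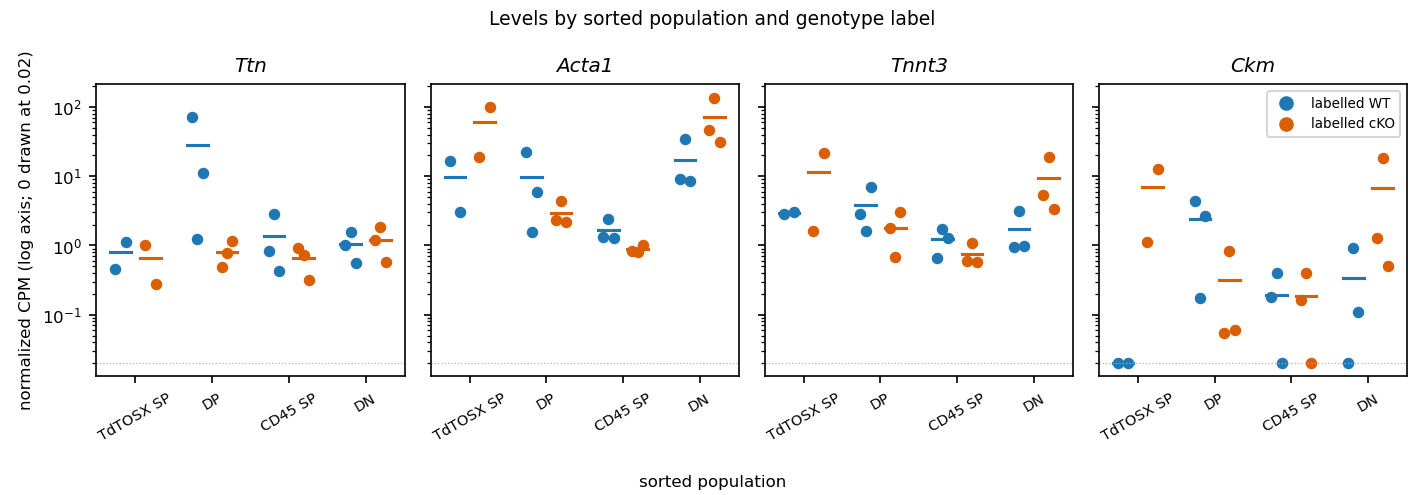
Normalized CPM (log axis, with 0 drawn at 0.02) of Ttn, Acta1, Tnnt3 and Ckm in each library (points) of the 4 sorted populations, with the mean of each group (horizontal bars; blue labelled WT, orange labelled cKO; SP single positive, DP double positive, DN double negative). For Acta1, Tnnt3 and Ckm the libraries labelled cKO reach highest in TdTOSX SP and DN cells, and for Ttn double positive cells labelled WT do.

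The difference of the genotype contrast between populations was tested itself. Between TdTOSX single positive and double negative cells it was called for none of the 7 members, and for 0.00666% of all tested genes, with Acta1 at 0.57 (SE 1.32, edgeR adjusted p = 0.948). Between CD45 single positive and double negative cells, none of the 7 and 0% of all tested genes were called. Tnnt3 was at -3.15 (SE 1.24, edgeR adjusted p = 0.513) and Acta1 at -2.96 (SE 1.30, edgeR adjusted p = 0.524), both with an unadjusted p under 0.05.

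Markers of tumor epithelium were on average higher under the cKO label in the same CD45- libraries, with overlap in double negative cells. The 5 markers, among which Krt18 was the most abundant, summed in double negative cells to 1228, 1994 and 1063 CPM under the cKO label and to 505, 1403 and 595 under the WT label. Those of TdTOSX single positive cells summed to 933 and 928 against 33.8 and 566. Other lists were also apart between the labels there. Leukocyte markers summed to 6119 and 2744 under the cKO label and 243 and 2547 under the WT label, and cardiac markers to 282 and 267 against 14.8 and 183. Of these cardiac sums under the WT label, Tnnt2 alone made up 12.9 and 179. Lower under the cKO label were fibroblast (13650 and 28350 against 59390 and 31990), smooth muscle and pericyte (1191 and 2677 against 4182 and 2977), endothelial (78.9 and 57.5 against 101 and 179), adipocyte (10.1 and 10.9 against 72.3 and 40.8) and Schwann cell markers (4.52 and 2.73 against 7.20 and 25.7). The library highest for Acta1 and Ckm, double negative replicate 2 labelled cKO, was also the highest for the sum of tumor epithelial markers. Leukocyte markers summed to between 436 and 520 in double negative cells labelled cKO and to 231, 1482 and 9514 in those labelled WT, and erythrocyte markers were at 185, 399.5 and 84.7 under the cKO label and 0.828, 1294 and 14.7 under the WT label. Their part in the differences was not tested.

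The likeness of other genes to Ttn and Acta1 was measured as Pearson's r of log2 CPM over the same 22 libraries, as a description, since the points share populations. Most like Ttn were Xirp2 (0.86), an actin binding protein of striated muscle, Trdn (0.72), Actn2 (0.69), the actinin of the Z disc, Sytl1 (0.68) and Exosc2 (0.67), beside Mb among the members (0.85). Without double positive replicate 1 labelled WT, r was 0.72 for Xirp2, 0.40 for Trdn and 0.64 for Mb. The other double positive libraries, which the choice of Ttn also used, remained in these values. Replicate 3 labelled WT among them held Ttn at 11.1 and Xirp2 at 1.74, so these values are no independent check. Most like Acta1 were Mrpl38 (0.87), Ppa1 (0.87), Gm26568 (0.86), Tmtc4 (0.85) and Psat1 (0.85), which are not genes of muscle contraction, and 195 tested genes were more like Acta1 than its nearest member, Tnnt3 (0.77). Between Ttn and Acta1, r was 0.17, and 0.05 without double positive replicate 1 labelled WT.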

How the data were processed

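RNA of 22 sorted populations was amplified as cDNA (SMARTer Ultra Low) and read as single 50-base ends. The authors aligned reads to GRCm38 with STAR 2.0.4b and counted uniquely aligned, unambiguous reads per gene with featureCounts (1.45 in the submitters' processing notes). The counts the authors deposited are whole and not normalized. The deposited CPM and RPKM were computed by the authors from the same counts, and were used here only for a check, with a relative deviation of at most 5.1e-14. Of 41388 genes, 40254 matched a symbol of the annotation, and positions are those of the deposited tables.

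Genes of rRNA (355) were left out, as were those that did not exceed 1 CPM in 2 or more libraries. Then edgeR 4.0.16 in R 4.3.3 fitted 1 mean for each of 8 groups with TMM factors and a quasi-likelihood test, checked on simulated counts. Population contrasts averaged both genotypes. The study's voomWithQualityWeights (limma 3.58.1), DESeq2 1.42.0, RLE factors, no filter, left-out libraries and other fits were alternatives. Replicates are labelled biological replicates. 4 members share exon bases with a gene on the other strand (64 to 515 bases), and counting is not stated to use strand. The 10 genes and all lists were chosen with earlier results of these data known. By a fixed rule the text names the 10 members, in each role of the 81 genes the 2 most abundant and up to 6 called, the 5 genes most like Ttn or Acta1, and the leading markers. The slow and fast fiber genes, Trdn, Neb, Pygm, Actn2 and any other gene were named after their values were seen. A gene that the rule names is not reported here.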

Additional observations from a re-analysis of the deposited data

Results flagged for a closer look

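The libraries of the 2 genotype labels did not overlap for Acta1 in 2 populations, with opposite signs, and neither passed the test. Its log2 fold change, labelled cKO over labelled WT, was 2.61 in TdTOSX single positive cells (2 libraries above 2, as for 21.4% of all tested genes) and -0.92 in CD45 single positive cells (3 libraries below 3, as for 5.90%). The edgeR adjusted p was 0.435 and 0.776, and the difference between these populations was not tested.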

How the results depend on the processing

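For CD45 single positive against double negative cells, 3 members were called in the reported fit, 5 without a filter on low counts, 5 by DESeq2, 1 in libraries labelled WT only, and between 1 and 5 with a single library left out. DESeq2 called 1 member (Ckm) between the labels in TdTOSX single positive cells. In the 6 other comparisons no other alternative called a member, whichever library was left out. Directions turned only for members that were not called. Ttn between the labels in double negative cells turned from 0.20 to -0.20 with voom, to -0.092 without 3 libraries together (an alternative chosen after seeing the data) and ranged from -0.24 to 0.62 with a library left out, and in TdTOSX single positive cells it ranged from -1.53 to 0.52. In CD45 single positive cells Ttn was 0.079 without the 3 libraries and ranged from -1.45 to 0.078, and Mylpf was 0.003 with voom, 0.031 without the 3 libraries and ranged from -0.84 to 0.032. Tnnt3 ranged from -0.88 to 2.85 between the labels in TdTOSX single positive cells. In TdTOSX single positive against double negative cells it was -0.14 with voom and ranged from -0.87 to 1.09, and Mylpf was 0.12 in libraries labelled cKO only and ranged from -0.83 to 0.037. In CD45 single positive against double negative cells, Ttn was 0.37 in libraries labelled WT only, and Mylpf was -0.17 with voom, -0.45 in libraries labelled cKO only, -0.20 without the 3 libraries and ranged from -0.072 to 0.51. The causes were not tested. With the replicate number as a block, the members called were 2 in place of 3 in CD45 single positive against double negative cells and 0 elsewhere. The numbers share no stated mouse, and same-numbered libraries correlated between -0.30 and 0.59 in their deviations (median 0.05, 30 pairs), so this pairing was not taken as one. Over all genes, edgeR called 0, 1 and 0 between the labels in double negative, TdTOSX and CD45 single positive cells where DESeq2 called 522, 134 and 26, and for TdTOSX single positive against double negative cells 39 where DESeq2 called 130, voom 80, no filter 23, the block 23, the fit without double positive libraries 10 and the fit without the 3 libraries 139. For the differences of the genotype contrast, edgeR called 1 gene (TdTOSX single positive minus double negative cells) and 0 (CD45 single positive minus double negative cells), DESeq2 558 and 10, and the fit without a filter 101 and 0. With a library left out, the counts ranged from 0 to 604 in double negative cells (without replicate 1 labelled WT), from 0 to 89 in TdTOSX single positive cells (without replicate 2 labelled WT), from 10 (without double negative replicate 1 labelled cKO) to 213 (without double negative replicate 3 labelled WT) between these populations, and for the first difference from 0 to 637 (without double negative replicate 1 labelled WT, and 481 without TdTOSX single positive replicate 2 labelled WT). Depth limits Myh4, Pax7 and Myod1, which had at most 156 counts in all, and Mb in CD45 single positive cells.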
